A study of Drosophila melanogaster with 8 samples.

Results

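The passenger arms of expressed microRNA (miRNA) hairpins are described here, as measured by small RNA sequencing of Drosophila S2 cells. They are the arms that the authors' tables call star. An arm was taken where its mean level was at least 10 RPM (reads per 1000000 small RNA reads), at its main start position and once per mature name and seed, without the hairpins miR-184, miR-279 and miR-980. This gave 37 passenger arms of 263 arms in all, 23 of them on the 5p side of the hairpin and 14 on the 3p side. The arms were chosen by their measured levels, so their levels are given as a description. The arms just inside the minimum were miR-999-5p at 11.1 RPM, miR-281-1-5p at 13.8 RPM and miR-276b-3p at 14.04 RPM. Just outside it were miR-2b-1-5p at 9.13 RPM, miR-307a-5p at 7.90 RPM and miR-1003-5p at 7.25 RPM, and 53 other star arms in all lay below 10 RPM.

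S2 cells are an established fly line of embryonic, blood-cell-like origin. The labels describe 8 samples of 4 genotypes, 2 of each. These are nbrKO + nbrCM, in which a catalytically inactive Nibbler is expressed in cells without nbr, nbrKO + nbrWT, in which wild-type Nibbler is expressed in such cells, nbrKO, and wild type. The labels give both added proteins as overexpressed, but neither the promoter that drives them nor whether a line is 1 clone. RNA of 18 to 30 nt was taken in all of them, the abundant 2S rRNA was removed, and the adapters carried random bases at the ligation ends. The deposited tables name their 8 libraries only by the numbers 81154 to 81161, and 0 of these numbers occur in the labels. No library was therefore given a genotype, and every value below belongs to a numbered library or is the lowest, median or highest of the 8, with no test between genotypes. The libraries held 17145872 to 32958242 small RNA reads, of which 34.7% to 44.3% were miRNA reads. At these depths 10 RPM stood for 171 to 330 reads, and 3 reads, up to which a count of 0 leaves room, stood for 0.0910 to 0.175 RPM.

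In flies, Drosha and Dicer-1 cut a miRNA hairpin into a short duplex. One strand, the guide, is kept in Argonaute1, and the other, the passenger, is mostly discarded. Some passenger strands are instead sorted into Argonaute2, where Hen1 methylates their 3' ends, and a cytosine as first base is known to favour this sorting. Nibbler is a 3'-to-5' exoribonuclease that trims the 3' ends of some guides held by Argonaute1, of which miR-34-5p is the best known. The study asked, from its genotypes, how small RNA lengths depend on Nibbler and on its catalytic activity.

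For each arm 8 bases are listed under the name seed. They are taken here as its first 8 bases, which the deposited data do not state. They are printed for the passengers that the results turn on, the most abundant ones, those opposite the most length-variable guides and 3 of the 4 that came closest to their guide in level, each followed by its guide; miR-281-2-5p, the other of those 4, is named only. Bases 2 to 8, the seed by which a miRNA finds its targets, are in capitals.
miR-2a-2-5p: cCTCATCA
miR-2a-2-3p: tATCACAG
miR-2b-2-5p: tTCTTCAA
miR-2b-2-3p: tATCACAG
bantam-5p: cCGGTTTT
bantam-3p: tGAGATCA
miR-282-3p: aCATAGCC
miR-282-5p: tAGCCTCT
miR-33-3p: cAATACAA
miR-33-5p: gTGCATTG
miR-34-3p: cAGCCACT
miR-34-5p: tGGCAGTG
miR-305-3p: cGGCACAT
miR-305-5p: aTTGTACT
miR-317-5p: tGGGATAC
miR-317-3p: tGAACACA
miR-9c-3p: tAAAGCTT
miR-9c-5p: tCTTTGGT
miR-190-3p: cCCAGGAA
miR-190-5p: aGATATGT
miR-1012-5p: gTGGGTAG
miR-1012-3p: tTAGTCAA

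The passengers and their guides differed in these bases. Of the 37 passengers, 16 began with C, 9 with G, 7 with A and 5 with T. Their 34 distinct guides began with T in 27 cases, with A in 4, with C in 2 and with G in 1. The 53 star arms below 10 RPM began with A in 17 cases, with G in 13, with C in 12 and with T in 11. C was thus the commonest first base of the passengers taken here, T that of the guides and A that of the rarer star arms. The star arms were split by level, so these counts, and the levels by first base below, are a description. Sorting into Argonaute2 was not tested. Within the first 4 bases the passenger held on average 1.61 A or T and the guide 2.53. The guide held more in 21 of 36 hairpins, as many in 7 and fewer in 8. The first base is part of this window, so this difference partly repeats that of the first bases. Passengers that began with C had a median level of 237 RPM, and those that began with G, T and A had medians of 148, 154 and 62.3 RPM. Some passengers share seed bases with guides of other hairpins. MiR-9c-3p shares bases 2 to 7 with miR-79-3p, miR-79-5p shares bases 2 to 7 with miR-9b-5p and miR-9c-5p, and miR-276b-3p shares bases 2 to 8 with miR-276a-3p. MiR-276a-5p shares bases 2 to 8 with miR-276b-5p, and the same reads are listed for both.

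Between the end of the 5p arm and the start of the 3p arm, counted from the start positions and the commonest read lengths, lay a median of 17 bases. The number was 14 to 27 in 36 hairpins and 54 in miR-998. The main start position was the one listed for the arm in 32 of 37 passengers. It lay 1 base downstream for miR-276a-5p, 1 base upstream for miR-996-5p, miR-995-5p and miR-1012-5p, and 9 bases upstream for miR-986-3p.

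Passenger arms made up 4.02% to 6.31% of the miRNA reads of a library, from 263182 to 704350 reads. The share was 5.70, 5.37, 6.05 and 6.31% in libraries 81154 to 81157 and 4.15, 4.24, 4.02 and 4.11% in libraries 81158 to 81161. The first 4 libraries were thus above the other 4, and without bantam-5p, the most abundant passenger, the order was kept, with 4.07% to 4.65% in the first 4 and 3.08% to 3.16% in the other 4. Single arms did not all have the order of this sum, since 10 of 37 passengers had their 4 highest levels in libraries 81158 to 81161. The first 4 libraries were also the deepest, with 24173855 to 32958242 small RNA reads against 17145872 to 24060438, and the part of depth in this difference was not tested.

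The median passenger had 149 RPM and the median guide 3505 RPM. By its median over the libraries, 6 passengers reached 1000 RPM, 23 had at least 100 RPM and 14 had less than that. The 5 most abundant took 58.2% to 68.0% of all passenger reads of a library. Most of the passenger reads therefore came from a few hairpins.

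Bantam-5p, opposite the growth-promoting guide bantam-3p, was highest. Its hairpin lies at chr3L:642208-642288 on the plus strand (dm6) in an exon of the non-coding RNA lncRNA:CR43334. It had 5880, 4980, 5286 and 5740 RPM in libraries 81154 to 81157 and 4423, 4773, 3690 and 3536 RPM in libraries 81158 to 81161. The guide bantam-3p, the most abundant in these cells, had 83862 to 112468 RPM. All 4 of the first libraries were above the others for the passenger, but the guide was highest in libraries 81154 and 81158, so the order was not shared.

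MiR-2a-2-5p and miR-2b-2-5p lie in 1 intron of the gene spi (Spitz, a ligand of the EGF receptor), at chr2L:19569490-19569561 and chr2L:19570182-19570264 on the minus strand. Their guides belong to the miR-2 family, which targets the cell-death genes reaper, grim and sickle. MiR-2a-2-5p had 2388, 2286, 2379, 2380, 2772, 2688, 2036 and 2227 RPM in libraries 81154 to 81161. MiR-2b-2-5p had 2164, 1929, 1753, 1846, 1259, 1292, 1112 and 1074 RPM in the same order. Of these neighbours, miR-2a-2-5p was highest in libraries 81158 and 81159 while miR-2b-2-5p was highest in 81154 and 81155.

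MiR-282-3p comes from chr3L:3251022-3251118 on the plus strand, in an exon of lncRNA:CR43626. It had 2613, 2670, 3145, 2752, 1898, 1617, 1342 and 1279 RPM in libraries 81154 to 81161. MiR-33-3p comes from an intron of SREBP, the gene of the lipid-synthesis regulator SREBP, at chr3L:19797961-19798059 on the plus strand, and its guide acts on lipid metabolism. It had 2101, 2099, 1970, 1945, 1364, 1351, 1013 and 991 RPM in those libraries. For both passengers, libraries 81154 to 81157 were the 4 highest and 81160 and 81161 the lowest 2. Their guides did not follow: miR-282-5p was highest in library 81158 with 13475 RPM, and miR-33-5p in library 81158 with 6999 RPM.

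**Figure D1:**
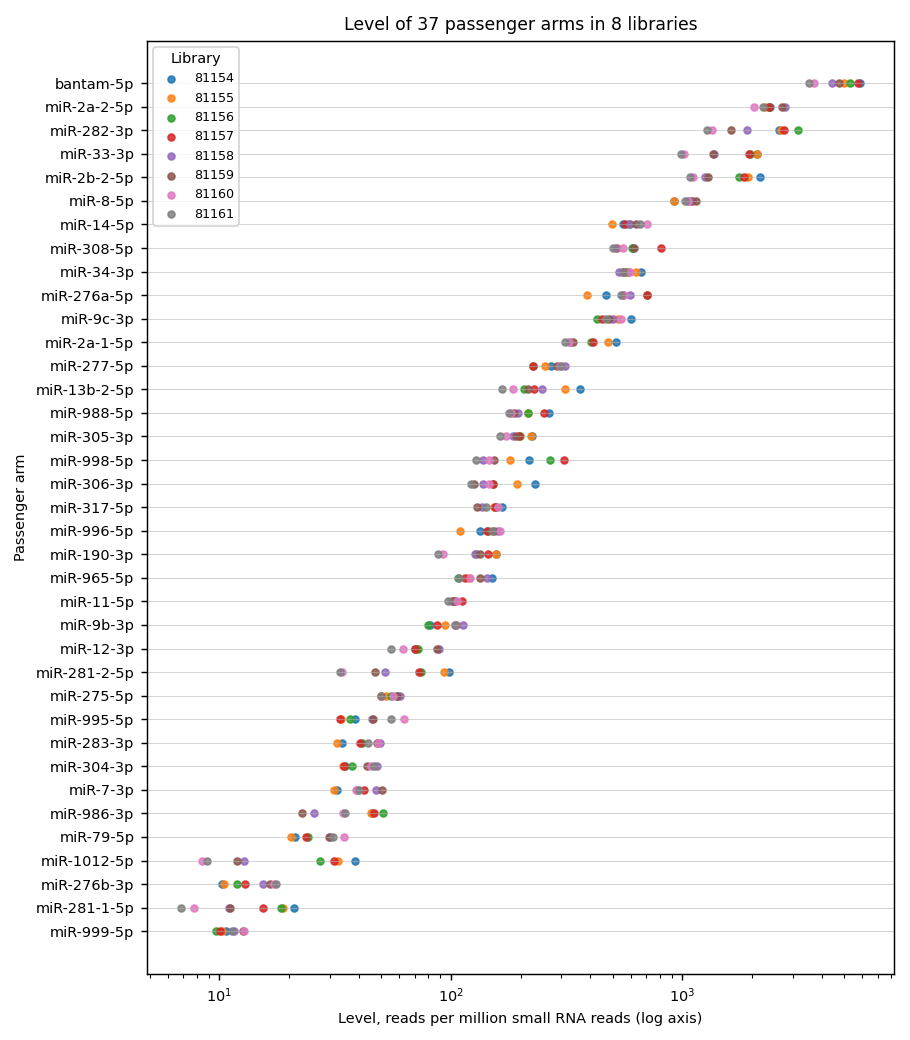
Level of the 37 passenger arms in each of the 8 libraries, in RPM on a log axis, with 1 point per library and arms ordered by mean level. Bantam-5p stands at the top with 3536 to 5880 RPM, and miR-1012-5p and the miR-281 passengers near the bottom show the widest rows of points.

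How much a level varied was measured as its span, the highest library over the lowest. A span of at least 2-fold was found in 9 of 37 passengers (24.3%), against 30.0% of the 100 arms that had 10 RPM or more and were seen in all libraries, 30.0% of the 60 arms called mature among them, and 8 of the 34 guides (23.5%). The 100 arms include the 37 passengers themselves and star arms of the hairpins left out. The share of passengers lay close to that of arms in general. The median span was 1.61 in passengers, 1.47 in guides and 1.61 in all 100 arms. Of the 9 passengers, 8 had their 4 highest levels in libraries 81154 to 81157, which were also the 4 deepest, and the part of depth was not tested. Over all 37 passengers, 13 had this order, and 10 had their 4 highest levels in libraries 81158 to 81161. How many guides or other arms had these orders of level was not counted, so they cannot be called particular to passengers.

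MiR-1012-5p had the widest span, 4.56-fold. Its hairpin, a mirtron whose ends are made by splicing and not by Drosha, fills an intron of Lerp, the gene of a lysosomal sorting receptor, at chr3R:26861349-26861407 on the minus strand. It had 38.4, 32.6, 27.2 and 31.3 RPM in libraries 81154 to 81157 and 12.7, 11.9, 8.43 and 8.81 RPM in libraries 81158 to 81161. These 2 sets of libraries did not overlap. The lowest library held 151 reads of it. Its guide miR-1012-3p had 67.8 to 73.3 RPM in libraries 81154 to 81157 and 34.4 to 39.9 RPM in the others, so it was also higher in the first set but by less.

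Both miR-281 passengers followed the same order. MiR-281-1-5p had 21.1, 18.8, 18.5, 15.4, 11.0, 11.1, 7.75 and 6.82 RPM in libraries 81154 to 81161, a span of 3.09-fold. MiR-281-2-5p had 98.0, 93.2, 74.4, 72.9, 51.7, 47.2, 33.8 and 33.1 RPM, a span of 2.96-fold. The sequence of miR-281-2-5p starts 1 base later than that of miR-281-1-5p, and both hairpins list the same guide reads, so the 2 passengers are not independent. The next widest were miR-282-3p at 2.46-fold, miR-998-5p at 2.41-fold, miR-986-3p at 2.23-fold, miR-13b-2-5p at 2.18-fold, miR-33-3p at 2.12-fold and miR-2b-2-5p at 2.01-fold.

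Other passengers hardly varied. MiR-11-5p, from an intron of the cell-cycle gene E2f1 at chr3R:21622497-21622571 on the minus strand, had 97.3 to 112 RPM, a span of 1.15-fold and the smallest of all. Its neighbour miR-998-5p, from the same intron at chr3R:21621879-21622021, had 218, 180, 269, 310, 137, 154, 146 and 128 RPM in libraries 81154 to 81161. The 2 passengers of 1 intron thus differed in how much they varied. In all, 16 passengers had a span under 1.5.

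The level of each passenger was then set against its own guide, as the passenger's share of the reads of both arms, over 36 hairpins. MiR-276b was left out because the guide reads listed for it are those of the passenger miR-276a-5p. The median share was 7.72%, 15 hairpins were under 5%, 6 from 5% to under 10%, and 15 at 10% or more. Passengers on the 3p side had a median share of 15.03% over 13 hairpins, and those on the 5p side 5.94% over 23. Taken singly, the passenger was below the guide in every library in 35 of the 36 hairpins, as the name star implies. The exception was miR-9c. The miR-281 passengers share a guide, which had at most 117 RPM. In library 81154 miR-281-2-5p had 98.0 RPM and miR-281-1-5p 21.1 RPM, which together exceed it. For 6 passengers the guide is listed at 2 or more hairpins, so the share is a lower bound on that of the hairpin itself. MiR-276a-5p was kept with a median share of 9.09%. Its reads are also those listed for miR-276b-5p, so this share is an upper bound.

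MiR-9c-3p was as abundant as its guide. The hairpin lies in an intron of grp, which encodes the checkpoint kinase Chk1, at chr2L:16697924-16698015 on the plus strand. The passenger had 600, 527, 428, 451, 503, 482, 542 and 468 RPM in libraries 81154 to 81161, and the guide miR-9c-5p had 554, 531, 471, 503, 496, 493, 515 and 501 RPM. In library 81154 the passenger's share was 52.0%, with a 95% Wilson interval of 51.4 to 52.6%. It was 51.3% (50.6 to 51.9%) in library 81160. In library 81157 it was 47.3% (46.6 to 47.9%). The arm that was the more abundant thus changed between libraries.

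MiR-281-2-5p came next, with a share of 45.7, 47.6, 45.3, 44.3, 45.1, 43.3, 42.6 and 40.9% in libraries 81154 to 81161. MiR-190-3p, from an intron of rhea (Talin, a link between integrins and actin) at chr3L:8571799-8571898, had 33.9, 39.9, 37, 35.9, 36.8, 37.2, 34.1 and 35.4%. MiR-1012-5p had 36.1, 32.5, 28.5, 29.9, 24.2, 23.4, 19.2 and 20.4%. The mirtron passenger was the only one of these whose first 4 libraries were all above the other 4 with no overlap.

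The lowest shares belonged to miR-14-5p and miR-11-5p. MiR-14 is a suppressor of cell death and lies at chr2R:9553762-9553824 on the plus strand. Its passenger had 552, 496, 588, 565, 592, 628, 703 and 659 RPM in libraries 81154 to 81161, while the guide miR-14-3p had 50351 to 76720 RPM. The share of miR-14-5p was 0.812% to 1.09%, with a median of 0.999%. MiR-11-5p had a share of 1.68, 1.62, 1.86, 1.94, 1.61, 1.58, 1.71 and 1.67% in libraries 81154 to 81161. Although miR-14-5p was the more abundant of the 2 passengers, it was the smaller part of its hairpin.

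For 15 of the 36 hairpins the 4 highest shares were in libraries 81154 to 81157, the 4 deepest, and the part of depth was not tested. The ratio of passenger to guide varied over the libraries by 1.35-fold to 3.08-fold in these 15. MiR-282-3p had 19.6, 19.4, 21.9 and 21.3% in libraries 81154 to 81157 and 12.3, 11.4, 10.3 and 10.3% in the others. MiR-33-3p had 23.4, 24.3, 23.8 and 22.8% and then 16.3, 17.2, 16.2 and 15.9%. The guide miR-282-5p had 10154 to 11234 RPM in the first 4 libraries and 11136 to 13475 RPM in the others, and miR-33-5p had 6304 to 6879 RPM and 5232 to 6999 RPM. In both hairpins the passenger's level differed between these libraries without overlap and the guide's overlapped.

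In other hairpins of the 15 the guide's level differed between these libraries without overlap. MiR-7-3p had a share of 16.0, 17.7, 20.9 and 20.7% in libraries 81154 to 81157 and 10.4, 11.9, 10.1 and 11.2% in the others. Its own level was 31.2 to 42.1 RPM in the first 4 and 39.1 to 50.2 RPM in the others. Its guide miR-7-5p, which acts in photoreceptor formation, had 145 to 169 RPM in the first 4 and 320 to 409 RPM in the others. MiR-996-5p had 134, 110, 145, 143, 160, 154, 163 and 151 RPM, against 2358 to 3030 RPM of its guide in the first 4 libraries and 5089 to 6216 RPM in the others. Its share was 4.92, 4.46, 4.58, 4.89, 2.92, 2.94, 2.56 and 2.59%. In miR-7 and miR-996 the guide was thus higher in libraries 81158 to 81161 without overlap, and so was the passenger of miR-996, by less than its guide, while the levels of miR-7-3p overlapped.

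MiR-998-5p had the widest span of the ratio to its guide, 3.08-fold, with shares of 23.9, 19.1, 16.8, 19.8, 11.1, 13.0, 10.6 and 9.25%. A span of the ratio of at least 2-fold was found in 8 of 36 hairpins, and the median was 1.705. In 19 of 36 the ratio varied more than the passenger's level itself. The remaining 21 hairpins had another order of shares. MiR-995-5p, from an intron of Cdk2, had 1.72, 1.39, 1.53 and 1.35% in libraries 81154 to 81157 and 1.99, 1.94, 2.33 and 2.06% in the others. This was the opposite order, with no overlap.

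**Figure D2:**
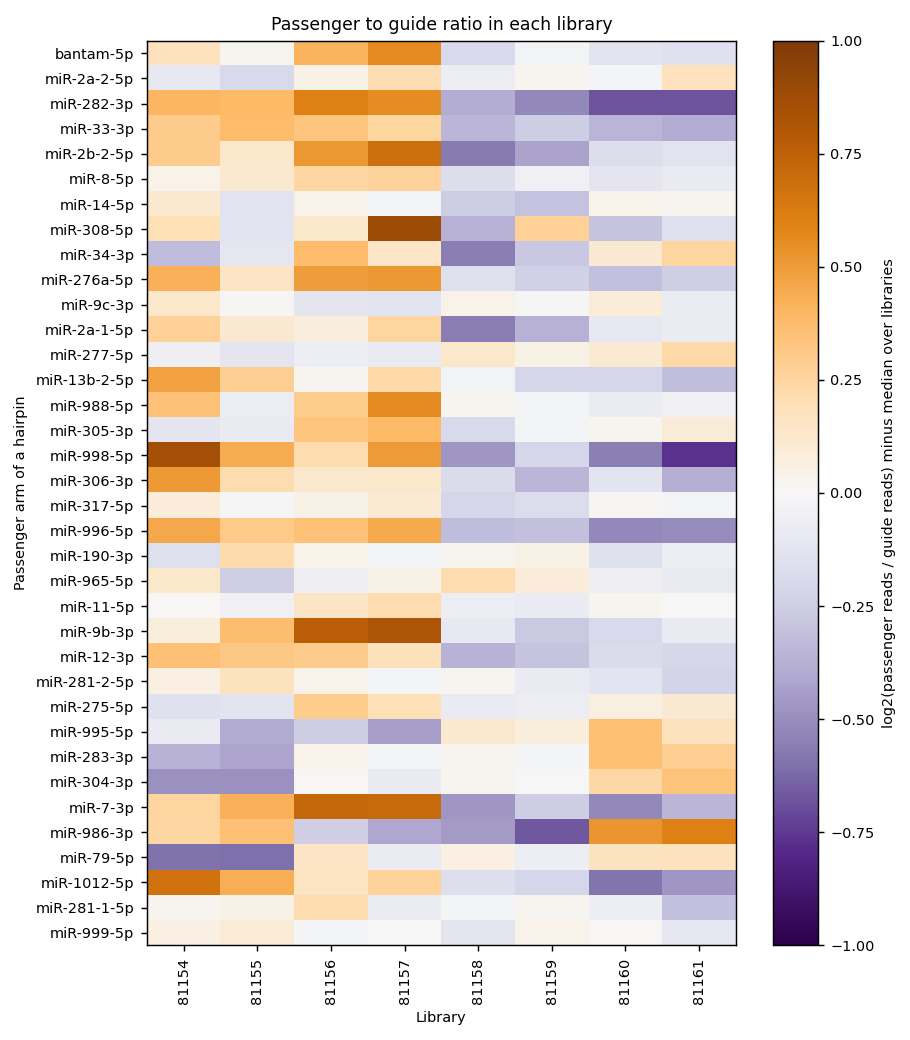
Log2 of passenger reads over guide reads in each library, minus its median over the 8 libraries, for 36 hairpins ordered by the passenger's mean level. Orange is a higher and purple a lower passenger to guide ratio; miR-282-3p, miR-33-3p and miR-996-5p are orange in libraries 81154 to 81157 and purple in the others, and miR-995-5p has the opposite colours.

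Passenger reads had a commonest length of 22 nt in 20 arms, 23 nt in 11, 21 nt in 5 and 24 nt in 1. Guides had 22 nt in 14 arms, 23 nt in 10, 24 nt in 6 and 21 nt in 4. The median of the passengers' mean lengths was 21.88 nt and that of the guides 22.44 nt. Passenger means ran from 20.57 nt for miR-277-5p to 22.88 nt for miR-13b-2-5p. The passenger was the shorter arm in every library in 17 hairpins, the longer in every library in 9, and neither in 10, with a median difference of -0.11 nt.

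The profiles of single arms were of several shapes. MiR-33-3p was nearly uniform, with 91.8%, 93.0% and 93.5% of its reads at 22 nt in the lowest, median and highest library. MiR-2a-2-5p had 86.6, 88.8 and 89.8% at 21 nt, miR-282-3p had 81.4, 83.5 and 89.1% at 22 nt, and bantam-5p had 72.1, 79.8 and 83.5% at 23 nt. The commonest length took at least 80% of reads in 13 passengers, a count that was not made for the guides. These included abundant and rarer arms.

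Broad profiles were found in 5 passengers, whose commonest length took less than 50%, and guides were not counted in this way either. MiR-283-3p had 33.0, 37.5 and 38.4% at 21 nt, miR-305-3p had 37.7, 45.1 and 49.3% at 23 nt, and miR-13b-2-5p had 40.4, 44.8 and 51.1% at 24 nt. The others were miR-988-5p and miR-190-3p. Within an arm the SD of read length was a median of 0.717 nt in passengers and 0.711 nt in guides.

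**Figure D3:**
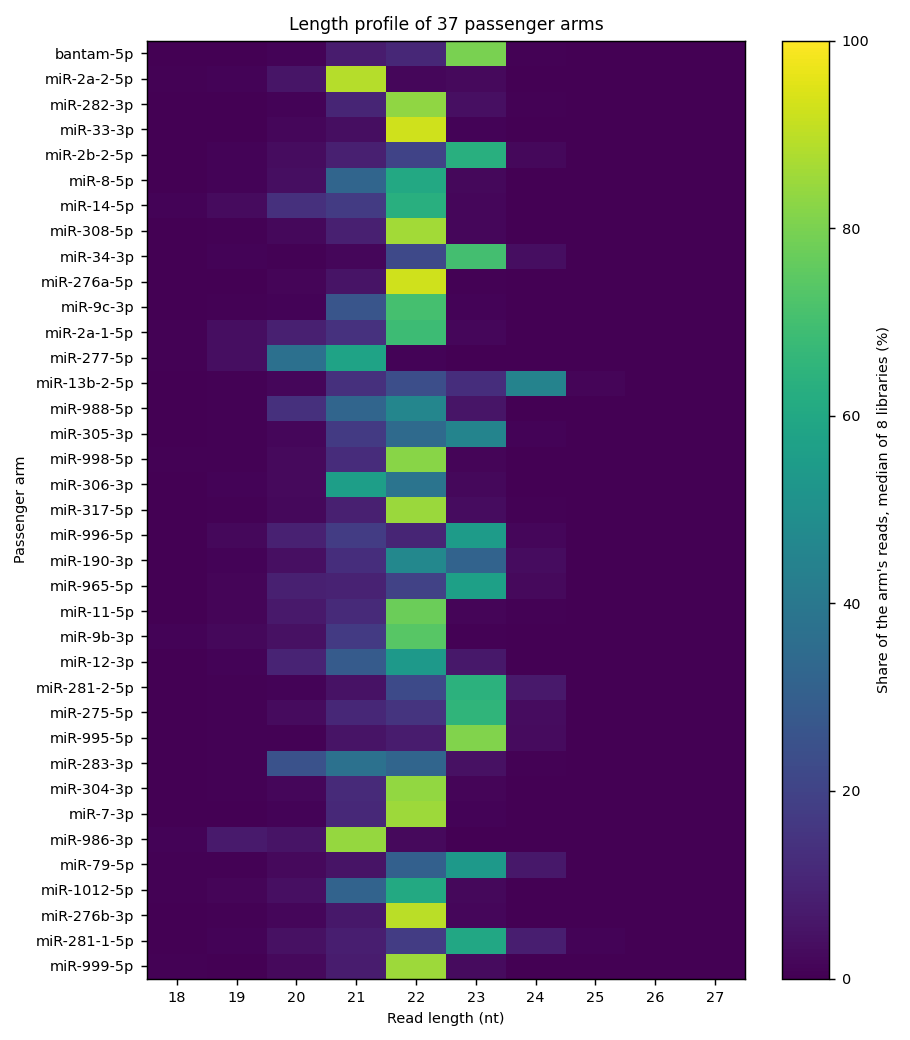
Length profile of the 37 passenger arms, ordered by mean level, with read length in nt on the horizontal axis. The colour gives the percent of the arm's reads at that length, as the median of 8 libraries; most arms have 1 bright cell at 22 or 23 nt, and miR-283-3p and miR-13b-2-5p have none above 50%.

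The change of length between libraries was measured as the range, the highest mean length minus the lowest. A range of at least 0.5 nt was found in 1 of 37 passengers (2.70%), against 12.0% of the 100 arms with at least 10 RPM, 16.7% of the 60 arms called mature and 8 of the 34 guides (23.5%). The median range was 0.170 nt in passengers and 0.183 nt in guides, and 0.210 nt in all 100 arms. At the minimum of 10 RPM, ranges past 0.5 nt were thus fewer among passengers than among guides, while the medians lay close together. Of the 37 passengers, 9 were under 0.1 nt, 21 from 0.1 to under 0.3 nt and 7 at 0.3 nt or more. Of the 34 guides, 10 were under 0.1 nt.

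Over the 36 hairpins the passenger's range was below the guide's in 20 and above it in 16. In the 9 hairpins whose guide had a range of at least 0.5 nt, of which miR-2a-1 and miR-2a-2 share 1 mature guide, the passenger's range was 0.0456 to 0.335 nt. These hairpins were picked by the guide's range, so which arm varied more in them is a description. Among those guides are miR-34-5p, miR-317-3p and miR-305-5p, known substrates of Nibbler; the passenger of another, miR-263a, was not among the 37. For miR-34-3p, from chr3R:10100936-10101034 in an exon of lncRNA:CR43459, the mean length was 22.65, 22.63, 22.82, 22.82, 22.65, 22.63, 22.81 and 22.81 nt in libraries 81154 to 81161. The guide miR-34-5p had 22.33, 22.24, 23.74, 23.82, 22.57, 22.51, 23.89 and 23.84 nt. Both arms were longest in libraries 81156, 81157, 81160 and 81161, by a range of 0.195 nt in the passenger and 1.65 nt in the guide. At 23 nt miR-34-3p had 61.0, 70.1 and 80.8% of its reads in the lowest, median and highest library, and at 22 nt it had 13.3, 22.1 and 30.7%.

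MiR-317-5p likewise had 21.87, 21.85, 21.93, 21.93, 21.84, 21.84, 21.94 and 21.93 nt, a range of 0.0990 nt against 1.196 nt in its guide miR-317-3p. MiR-305-3p had 22.06, 22.02, 22.21, 22.24, 22.30, 22.32, 22.28 and 22.26 nt, a range of 0.303 nt against 1.34 nt in miR-305-5p. The order of libraries differed: miR-305-3p was shortest in 81154 and 81155 but not in 81158 and 81159, where its guide was also short at 22.76 and 22.74 nt. MiR-2a-2-5p stayed at 20.97 to 21.02 nt, a range of 0.0456 nt against 0.696 nt in its guide, and miR-7-3p had 0.0798 nt against 0.555 nt.

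**Figure D4:**
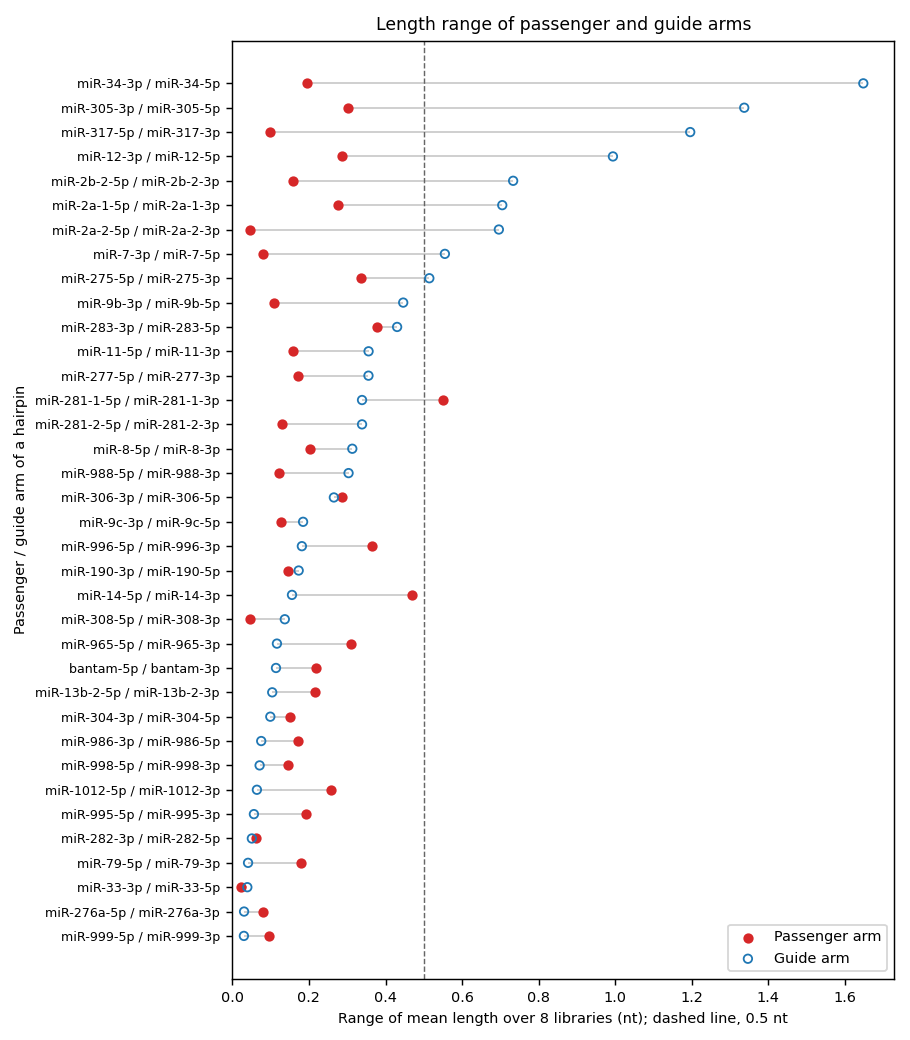
Length range over the 8 libraries of each passenger arm, beside that of its guide, in nt. Guides such as those of miR-34, miR-305 and miR-317 reach 1.196 to 1.65 nt, while the passengers of these hairpins stay at or below 0.303 nt.

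The 16 hairpins in which the passenger was the more variable arm include miR-14 and miR-996. MiR-14-5p had 21.29, 21.18, 21.42, 21.41, 21.49, 21.48, 21.64 and 21.65 nt in libraries 81154 to 81161, a range of 0.470 nt against 0.156 nt in its guide. Its reads of 22 nt were 49.1, 63.3 and 75.1% in the lowest, median and highest library and its reads of 20 nt 9.49, 13.9 and 22.4%. It was shortest in libraries 81154 and 81155 and longest in 81160 and 81161. MiR-996-5p had 22.05, 21.95, 22.05, 22.05, 22.22, 22.20, 22.32 and 22.20 nt, a range of 0.364 nt against 0.181 nt in its guide. MiR-283-3p, from an intron of Gmap at chrX:15507956-15508055, had 21.01, 20.95, 21.07, 21.08, 21.22, 21.24, 21.29 and 21.33 nt, a range of 0.378 nt against 0.430 nt in its guide, so there the guide varied more. These 3 passengers were all longer in libraries 81158 to 81161 than in the others.

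The passenger with the widest range, miR-281-1-5p, had 22.40, 22.19, 22.73, 22.65, 22.47, 22.48, 22.74 and 22.68 nt. Its range of 0.549 nt rested on 117 to 609 reads a library, and the largest standard error (SE) of its means, from counting alone, was 0.0988 nt. Without library 81155 it was 0.345 nt, so that no passenger then reached 0.5 nt. MiR-275-5p, from chr2L:7425795-7425892, had 22.53, 22.45, 22.59, 22.65, 22.40, 22.38, 22.67 and 22.71 nt, a range of 0.335 nt against 0.514 nt in its guide.

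The order of libraries by length was also compared. In 9 passengers the 4 longest means were in libraries 81156, 81157, 81160 and 81161, as they were in 24 of the 34 guides. The 9 were those of bantam, miR-34, miR-276a, miR-998, miR-317, miR-275, miR-995, miR-304 and miR-281-1. In 8 passengers, those of miR-8, miR-14, miR-305, miR-306, miR-996, miR-965, miR-12 and miR-283, they were in libraries 81158 to 81161, as in 3 guides. The 4 libraries of that second order were the 4 with the fewest reads, and the part of depth in it was not tested. In 5 passengers, of miR-13b-2, miR-190, miR-7, miR-1012 and miR-999, they were in libraries 81157 to 81160. The orders take no account of counting error. The range exceeded 4 times the arm's largest SE in 34 of 37 passengers, but miR-999-5p had 0.0964 nt with an SE of up to 0.0525 nt. In 3 passengers, of miR-2a-1, miR-11 and miR-986, the 4 longest means were in libraries 81154, 81155, 81158 and 81159. The passengers of miR-2a-2, miR-282 and miR-2b-2, all among the 5 most abundant, had them in libraries 81154 to 81157, the reverse of the second order. Their ranges were 0.0456, 0.0623 and 0.159 nt. The rest had further orders. For miR-2a-1-5p the mean was 21.66 nt in library 81154 and 21.38 nt in library 81161, while its guide miR-2a-1-3p was longer in library 81161, at 23.58 nt, than in 81154, at 23.04 nt. Between libraries 81154 and 81161 the arms therefore differed in opposite directions. In libraries 81156 to 81159 the passenger stayed at 21.52 to 21.57 nt. The guide had 23.54 and 23.55 nt in 81156 and 81157, and 22.91 and 22.92 nt in 81158 and 81159. This guide is listed at 2 hairpins, so its length is not that of miR-2a-1 alone. For miR-11-5p the range of 0.158 nt was 0.0772 nt without library 81161.

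**Figure D5:**
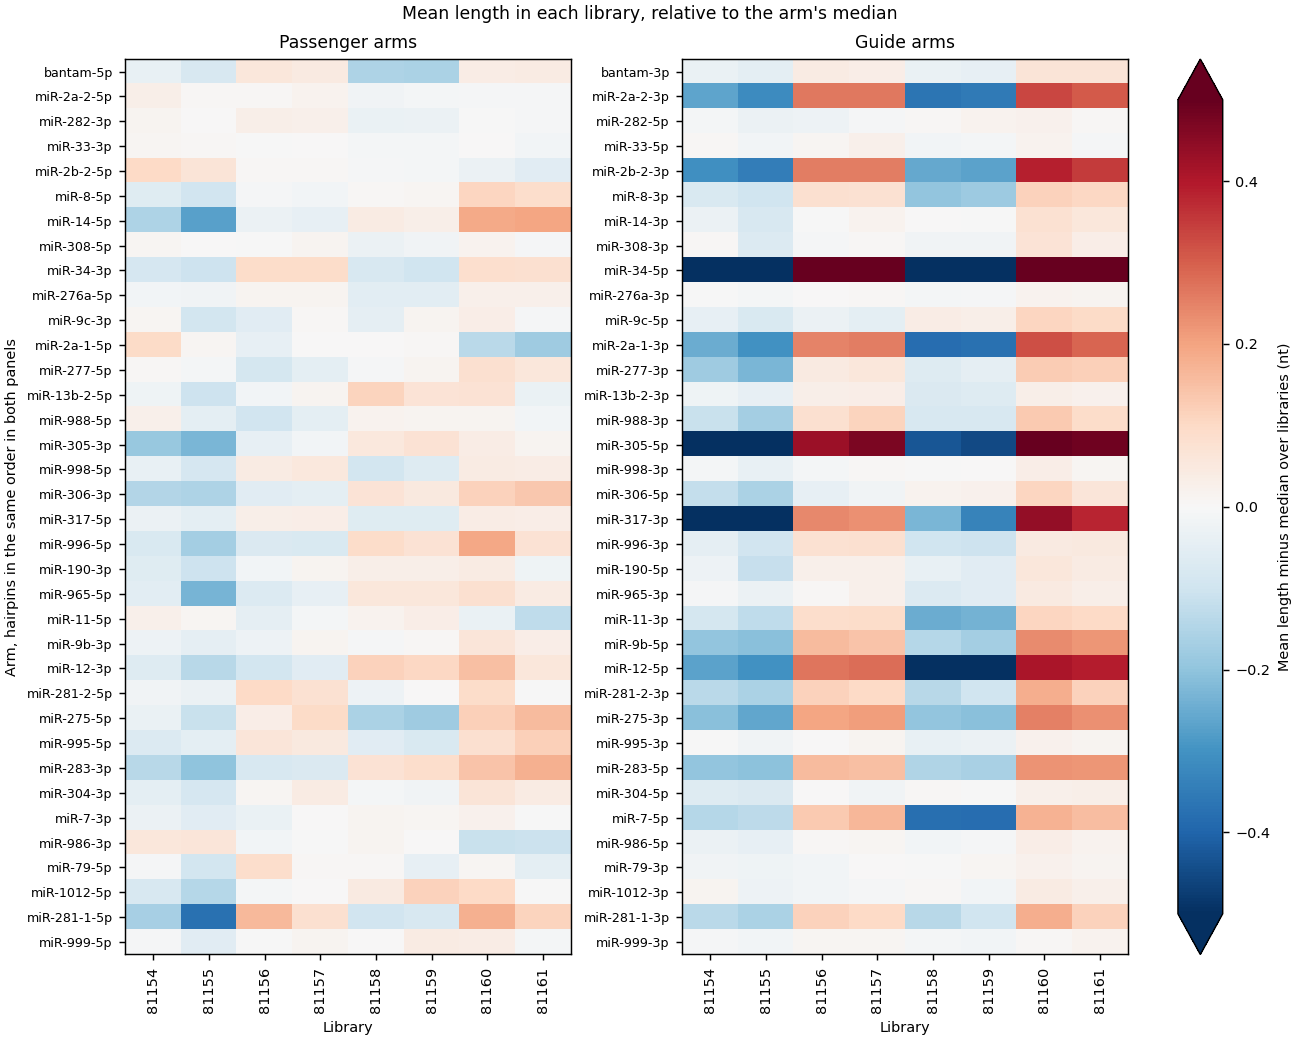
Mean length in each library minus the arm's median over the libraries, in nt, for passenger arms on the left and their guides on the right, with hairpins in the same order. Red is longer and blue shorter, and colours end at 0.5 nt; the guides are mostly red in libraries 81156, 81157, 81160 and 81161, and the passengers show paler and less uniform rows.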

How the data were processed

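Small RNA was sequenced from 8 S2 cell samples. Per the submitters' processing notes, the tools were Bowtie 1.2.2, cutadapt 1.7.1 and Picard, and the build dm6, with no settings listed. Per the file headers, the authors deposited signal values by arm, start position, library and read length. Its unit, worked out from the values, is reads per 1000000 small RNA reads: multiplied by the deposited read totals it came to whole reads, within 0.001, in 100% of lines. The deposited score of average level is the authors' mean over the libraries. The third deposited table holds other values, whole-number totals of small RNA and miRNA reads. Near-identical paralogs, as in the miR-2, miR-13 and miR-276 groups, can share reads, so their values are uncertain.

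Mean lengths were weighted by reads, and their SE and the 95% Wilson intervals cover counting error only, since amplified reads are not independent molecules. The calculation was tested on simulated reads. Hairpins were placed with the Ensembl release 115 annotation of BDGP6, which is dm6; 35 of the 37 hairpin IDs matched, and sequences come from the deposited tables. Arms are named by rule: the 5 highest levels, the 5 widest length ranges, the 4 widest spans, the 4 highest and 2 lowest shares, and passengers of known Nibbler substrates, of the miR-2 and miR-13 family and of mirtrons. Members, lists and rule were chosen with earlier results of these data known, and other arms after their values were seen. A test between genotypes (edgeR) was planned and not run, because no library could be given a genotype. Other level minimums, a narrower length window, other scaling and leaving out 1 library were tried. The scripts ran on Python 3.11.15 with numpy 2.4.6, pandas 2.3.3, matplotlib 3.10.9 and scipy 1.17.1.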

Additional observations from a re-analysis of the deposited data

Results flagged for a closer look

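MiR-986-3p stood out in a class of reads that the tables mark tc. The labels do not explain this class; it is read here as T-to-C mismatches. It held 95.2% of the reads of miR-986-3p over the 8 libraries. By library this was 95.4% of 1100, 96.5% of 1211, 94.9% of 1672, 94.0% of 1136, 96.3% of 618, 94.3% of 438, 96.0% of 755 and 94.5% of 599 reads in libraries 81154 to 81161. The lowest Wilson bound was 91.7%, in library 81159, so the class was high in every library. This is also the passenger whose main start lies 9 bases upstream of the listed one. Its levels, lengths and shares in the report are those of reads of both classes.

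Over the other 36 passengers the class held 0.0831% of reads, and 0.0745% to 0.0900% by library. These were 216 to 588 reads a library, above the 3 reads up to which a count of 0 leaves room, and there are no control samples to set them against. The highest share among the other passengers was 0.614%, in miR-276b-3p. What the class stands for was not tested.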

How the results depend on the processing

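The count of 1 passenger with a length range of at least 0.5 nt was 0 at a minimum of 100 RPM, 6 at a minimum of 1 RPM, 0 with reads of 20 to 26 nt only, 1 without the reads marked tc, 0 with each library's median deviation taken off, and 0 to 1 when 1 library was left out. The count of 9 passengers with a span of at least 2-fold was 20 at a minimum of 1 RPM and 5 at 100 RPM, 7 with median-of-ratios scaling, 9 per miRNA read, and 7 to 9 when 1 library was left out. The passengers numbered 57 at a minimum of 1 RPM and 23 at 100 RPM. They numbered 36 without the reads marked tc, where miR-986-3p was left out. Of the 6 with a wide length range at 1 RPM, only miR-281-1-5p averaged at least 10 RPM, and the others had 1.06 to 3.36 RPM. The count of wide length ranges thus depended on the minimum. The median share of 7.72% was 9.27% at a minimum of 1 RPM, 6.31% without hairpins whose guide is listed at 2 or more hairpins, 6.35% with miR-276b, 7.72% with all start positions summed, and 7.38% to 8.11% when 1 library was left out. The median length of 21.88 nt was 22.004 nt over pooled reads and 21.91 nt over 20 to 26 nt. The settings that take off the median deviation, drop shared guides, add miR-276b, or leave out 1 library for the median length were chosen after seeing the data. Median-of-ratios scaling shifted levels by -0.14 to 0.10 on the log2 scale by library, and scaling per miRNA read by -0.19 to 0.17. No paired analysis was possible because no library number matches a sample or replicate in the labels, and contrasts between genotypes were not run. The precision of the rarest passengers is limited by depth: miR-281-1-5p had 117 reads in its lowest library.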
